A study of Drosophila melanogaster with 3 samples.

Results

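Among the 15755 HP1 peaks deposited for whole Drosophila melanogaster embryos, 264 (1.68%) lay on sequence of the sex chromosomes. They were chosen by the sequence name alone: 220 peaks on the arm X, 32 on XHet and 12 on YHet. XHet and YHet hold heterochromatin that FlyBase release 5 assigns to X and to Y without joining it to an arm. The embryos were 8 to 16 h old, and their strain is labelled Y cn bw sp. All samples share 1 genotype, with the body colour allele y[1] and oc[R3.2] on X. It also has the eye colour alleles bw[1] and cn[1], with sp[1], CG33964[R4.2], Gr22d[1] and Gr22b[1]. The other alleles are Rh6[1], GstD5[1], MstProx[1], lab[R4.2] and LysC[1]. There was 1 input DNA sample and there were 2 ChIP samples, for which a polyclonal HP1 antibody raised in rabbit was used. Both kinds came from embryos fixed in 1.8% formaldehyde for 15 min. The labels do not give the sex of the embryos or say whether the ChIP samples came from separate collections. All cell types of the embryo were pooled.

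HP1, heterochromatin protein 1, binds the methylated lysine 9 of histone H3 and packs chromatin into the compact form found around centromeres. In flies it also sits at the chromosome ends, which are built from telomeric retrotransposons and which HP1 helps to cap. The fly X has an active arm that ends in pericentric heterochromatin, whereas the Y, carried by males, is heterochromatic almost throughout.

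The list holds 1 set of peaks for the series, with no value for each sample. No difference below therefore has an error between replicates or a test, and the read depth is unknown. Each peak has a position, a width and the authors' score, which has no stated definition and is used in its own units within this list. Lengths of the sequences were taken as the end of their last peak, because the list gives none. Density is the number of peaks per Mb of that length.

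Peaks on the sex chromosomes scored lower than the list as a whole. Their scores ran from 6.74 to 145.9 with a median of 16.0, against 20.96 for all peaks. Scores at or above the upper quartile of the list, 34.59, belonged to 36 of the 264 peaks (13.6%), against 25.4% of all peaks. Their widths were closer to the list, with a median of 476 bp against 503 bp and a range of 200 to 5217 bp. Wide peaks of at least 2000 bp numbered 29 (11.0%), against 6.91% of all peaks. Most peaks of the list lie on U and Uextra, sequence without a chromosomal place, which weighs on every value for all peaks. Only 360 peaks there were 1600 bp or wider. Of the 4 autosomal arms, 53 of 495 distal and 225 of 1012 inner peaks (regions defined below) were at least 2000 bp wide. On X these were 12 of 119 and 9 of 87. Score and width moved together across the 264 peaks, with a rank correlation of 0.795. The peaks share libraries and a caller and are not independent.

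At like width, peaks of X scored about as high as those of the distal autosomal arms and lower than those on unplaced sequence. Among peaks of 400 to under 800 bp, the median score was 16.9 on X (66 peaks) and 18.2 on the distal autosomal arms (157 peaks). It was 26.95 on U and Uextra (4965 peaks), which collect sequence without a chromosomal place. Among peaks of 200 to under 400 bp the medians were 11.52 on X, 11.24 on the distal autosomal arms and 13.47 on U and Uextra. Among peaks of 1600 bp or more they were 47.9 on X (26 peaks), 47.6 on the distal autosomal arms (70 peaks) and 57.0 on U and Uextra (360 peaks). In these classes X was thus nearer to the distal autosomes than to the unplaced sequence. The autosomal heterochromatin of 2LHet, 2RHet, 3LHet and 3RHet also lay near, so the likeness was not particular to the distal arms. Its medians were 11.9 at 200 to under 400 bp, 18.4 at 400 to under 800 bp and 52.4 at 1600 bp or more. The values for X include its inner end.

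**Figure D1:**
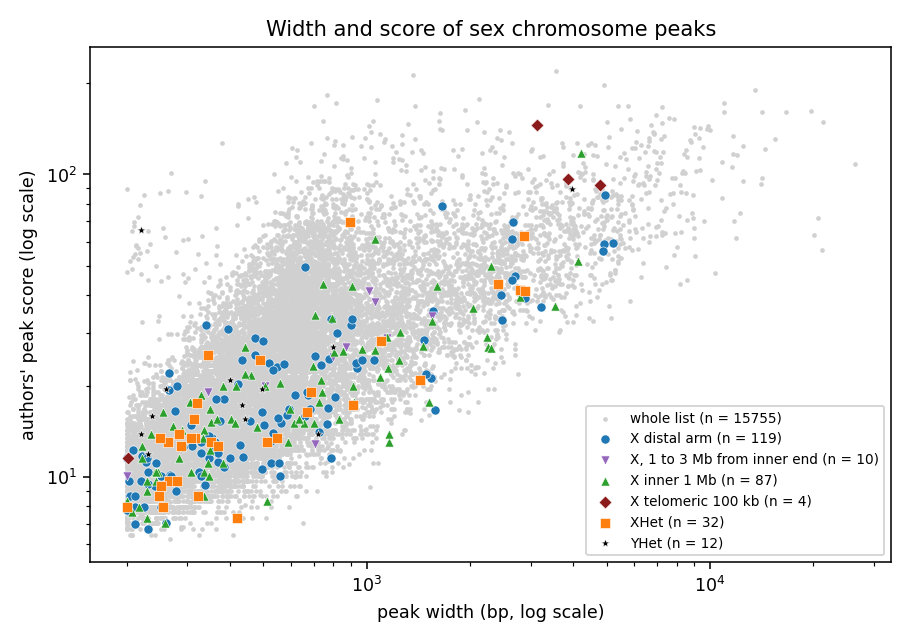
Each point is 1 HP1 peak, with its width in bp and the authors' score, both on log axes. Grey points are the whole list, and coloured symbols are the sex chromosome peaks by region. At like width the 264 sex chromosome peaks lie mostly in the lower part of the grey cloud, and 3 telomeric peaks of X and the widest YHet peak stand at the upper right.

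The arm X was divided into the telomeric 100 kb and the inner 1 Mb, at the centromeric end of the arm sequence. Between them lay the stretch from 1 to 3 Mb from the inner end and the distal arm, which is all the rest. The telomeric end held 4 peaks, the distal arm 119, the stretch between 10 and the inner 1 Mb 87. The distal arm was 19.3 Mb long. The inner 1 Mb thus held 39.5% of the peaks of X and 38.3% of the bases under them. The median scores were 94.5 at the telomeric end, 15.3 on the distal arm, 25.9 between 1 and 3 Mb and 16.8 in the inner 1 Mb. Peaks of the inner end were thus more frequent than those of the distal arm but scored about as high.

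At the telomeric end, 3 wide, high-scoring peaks followed each other from the first base of X. They ran from 1 to 3857 with a score of 96.7, from 6162 to 9300 with 145.9, and from 13797 to 18591 with 92.2. The middle of the 3 had the highest score on X. A small peak of 202 bp with a score of 11.52 followed, from 22445 to 22646. The first 22646 bp of X were 53.0% covered by these 4 peaks, and the rest of the outer 100 kb was empty.

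The telomeric ends of the other arms differed in form. In the same 100 kb, 2L held a single peak of 5101 bp (score 47.4). On 3L there was a peak of 20098 bp (score 63.3) and 2 small ones of 208 and 293 bp. On 3R there were 6 peaks of 648 to 717 bp with scores of 59.35 to 95.5, and on 2R a single peak of 542 bp (score 67.8). X was the only one of the 5 arms with 3 separate peaks over 3 kb there, and its highest telomeric score was above those of the other 4 arms. The telomeric ends of 2R and 3R were taken as the end of the last peak, which puts a peak there by construction.

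Inward from the tip, X held a few peaks between long empty stretches. The distal arm as a whole was likewise sparse, with 6.17 peaks per Mb and 0.5% of bases covered. After the 4 telomeric peaks came 191594 bp without a peak, then 3 small peaks from 214241 to 217050 with scores of 11.73 to 15.3. Another 106045 bp without a peak led to 2 larger ones, with a score of 36.6 from 323096 to 326316 and of 21.3 from 326599 to 328138. No peak lay in the next 924064 bp.

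That empty stretch ended in the chain near 1.26 Mb, the largest group of peaks on the distal X. A chain here joins neighbouring peaks with less than 5 kb between them. From 1252203 to 1261486 it held 11 peaks, which covered 6136 bp, or 66.1% of its 9284 bp. Among the 229 chains on the distal parts of all 5 arms it was the only one with at least 11 peaks, and the most on an autosome was 9. The next peak lay 261394 bp further inward.

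The chain was made of many modest peaks. Their median score was 15.1, between 7.04 and 31.85, and none reached the list's upper quartile of 34.59. Their median width was 474 bp, between 228 and 1049 bp, and 6 of the 10 gaps between them were shorter than 200 bp. The higher peaks stood towards both ends, with the 2 highest on the centromeric side. The outermost peak on the telomeric side, from 1252203 to 1253251, had a score of 24.4, followed by 22.9, 18.6, 12.78, 15.1, 11.52, 11.24 and 9.02. At the centromeric side the score was 28.8 from 1259550 to 1260023, 7.04 in the next peak and 31.85 in the last, from 1260587 to 1261486. The lowest scores, 11.52, 11.24, 9.02 and 7.04, thus lay on the centromeric side of the chain's midpoint, the last of them between the 2 highest. The number of peaks depends on where the caller split the signal: with peaks less than 1 kb apart joined, the chain was 1 region.

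**Figure D2:**
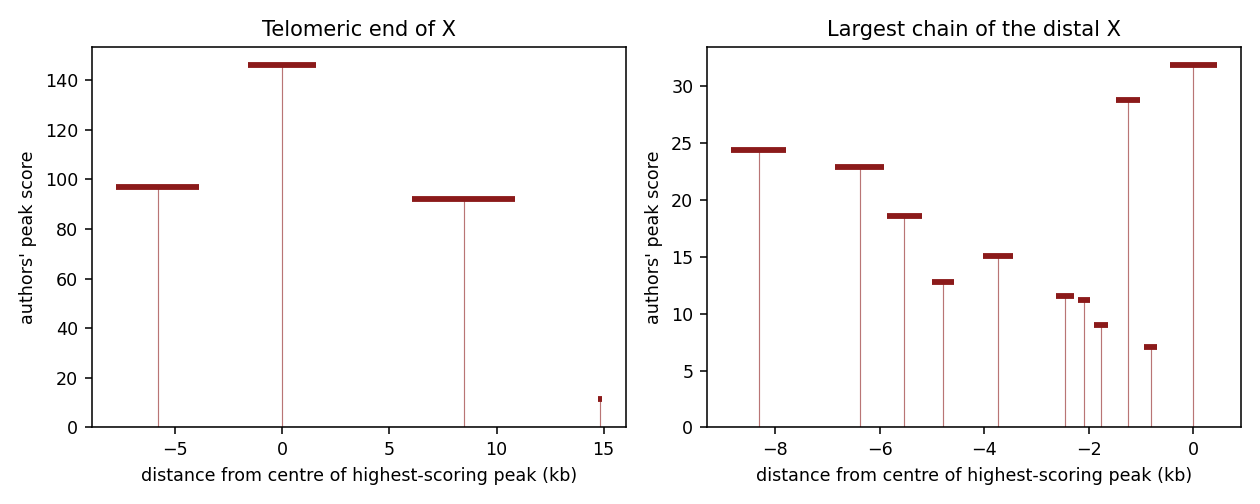
Horizontal bars show each peak's extent in kb from the centre of the highest-scoring peak of the group, at the height of the authors' score. The telomeric end has 3 wide peaks with scores from 92.2 to 145.9 and 1 small one. The chain near 1.26 Mb has 11 narrower peaks with scores of 7.04 to 31.85. Its higher scores lie towards both ends, with the 2 highest on the centromeric side.

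The distal X carried about as many peaks as the distal autosomes. It had 6.17 peaks per Mb, against 5.88 over the 4 autosomal arms together. The single arms had 4.72 (3R), 5.71 (2R), 6.58 (3L) and 6.74 (2L). X was thus inside the range of the single arms. The ratio of X to the 4 arms was 1.05 for the number of peaks. It was below 1 under all 5 alternatives tried, among them 0.928 for the bases covered. The ratio changed side with the setting and has no error between replicates, so no direction was read from it. Counting only peaks that scored 34.59 or more, the ratio was 0.755, and 14 of the 119 distal X peaks (11.8%) reached that score, against 16.4% on the distal autosomal arms.

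These peaks came in small islands separated by long empty stretches. A neighbour within 5 kb was present for 108 of the 119 distal peaks (90.8%), against 86.5% on the distal autosomal arms and 96.2% of all peaks in the list. This share does not set the distal X apart. With peaks less than 1 kb apart joined it was 34.0%, so it depends on where the caller split the signal. These 119 made up 39 chains: 11 had a single peak, and 8 had at least 5. There were 2.02 chains per Mb with a mean of 3.05 peaks each, against 2.26 and 2.61 on the distal autosomal arms. The longest distal X chain spanned 9284 bp, whereas the distal autosomal arms reached 14632 bp. The long empty stretches of the whole X included 18 of at least 500 kb, which summed to 71.9% of its length. On 2L, 2R, 3L and 3R such stretches summed to 58.2% to 63.5%, where parts of 2L, 2R and 3L lie in longer dense inner ends. The longest on X, 2192159 bp, lay between a peak that ends at 8051607 and the next, which begins at 10243767.

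The islands were unevenly spread. Of the whole Mb of X outside the inner 3 Mb, those from 7 to 8 and from 9 to 10 had no peak. Those from 8 to 9 and from 15 to 16 had 1 each, and that from 16 to 17 had 2. The most peaks, 18, lay from 1 to 2 Mb, where the chain near 1.26 Mb supplied 11 of them. Next came 16 from 6 to 7 Mb and 15 from 14 to 15 Mb.

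The chains with the most peaks, after the one near 1.26 Mb, held 5 or 6. Those with 6 ran from 6287357 to 6290932 (highest score 25.1) and from 14672469 to 14676365 (highest score 24.4). Of the 5 chains with 5 peaks, those nearest the telomere ran from 1522881 to 1527608 (highest score 19.4) and from 4991105 to 4996981 (highest score 28.4). None of these 4, nor the chain near 1.26 Mb, reached a score of 34.59. Another chain of 5, from 10990508 to 10996954, did, with a highest score of 78.8.

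The highest scores on the distal arm lay in chains that held a wide peak, though not always in the wide peak itself. Of the 39 chains, 10 had a peak of at least 2000 bp. They spanned 3832 to 7170 bp, were 86.0% to 100% covered and held 55.4% of all distal bases under peaks. The highest score in each was between 36.6 and 85.2, whereas the other 29 chains had highest scores between 8.66 and 35.5. As score and width go together across the list, this split by width also divides the scores in part. The split was chosen after the values had been seen.

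The highest of these scores, 85.2, belonged to a peak of 4946 bp from 12825341 to 12830286, flanked by 3 peaks of 202 to 498 bp. A peak from 10991564 to 10993224 scored 78.8 in 1661 bp, in a chain of 5 whose widest peak, of 2476 bp, scored 32.97. Next came 2 neighbours in a chain of 4, with a score of 69.5 from 14450058 to 14452723 and of 61.2 from 14447340 to 14449982. They were 2666 and 2643 bp wide. The widest peak of X, 5217 bp from 1826234 to 1831450, scored 59.3. Of similar width were a peak of 4903 bp from 2505142 to 2510044, with a score of 58.9, and a lone peak of 4875 bp from 6324131 to 6329005, with 56.0. The distal X thus had 4 peaks of 4875 to 5217 bp in 4 separate places.

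**Figure D3:**
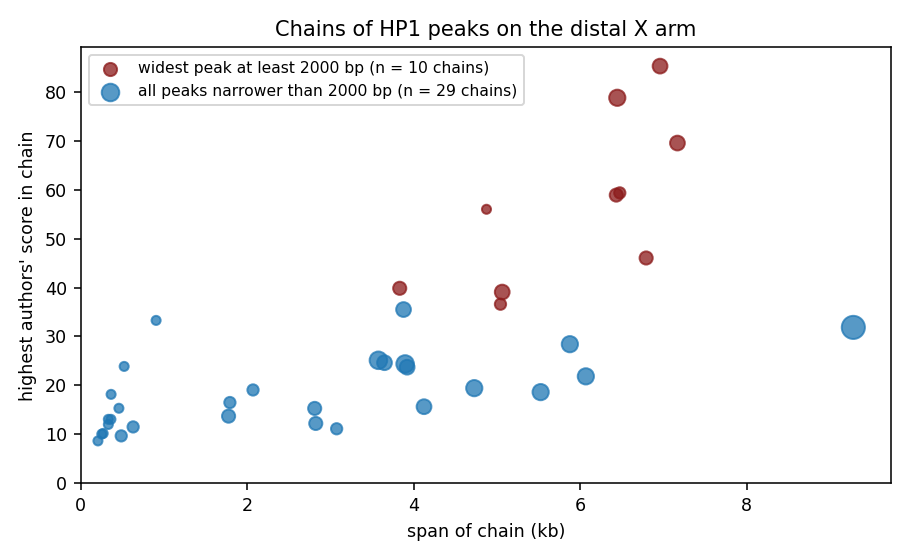
Each circle is 1 of the 39 chains on the distal X, with its span in kb and the highest authors' score among its peaks, and larger circles hold more peaks. The 10 chains with a peak of at least 2000 bp have highest scores of 36.6 to 85.2, above the 29 others, and the chain near 1.26 Mb stands at the far right at 9.28 kb with a score of 31.85.

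At the inner end, HP1 on X was concentrated in a band set back from the end of the arm. Between 500 and 900 kb from the inner end there were 78 peaks, which is 35.5% of the peaks of X in 1.79% of its length. These limits follow the steps of 100 kb that were filled in the same list, so the high share is in part by construction. This band, from 21502116 to 21827478, was densest at 700 to 800 kb from the end, with 34 peaks and 25.4% of bases covered. The final 500 kb held 8 peaks in 3 places and 2 of its 5 steps of 100 kb were empty. Further out there were 5 peaks from 1 to 2 Mb and 5 from 2 to 3 Mb.

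The inner ends of the autosomal arms had another shape. The last 500 kb held 168 peaks on 2L, 150 on 2R and 185 on 3L, and the 500 kb beside it 131, 165 and 194. On X the same 2 stretches held 8 and 79 peaks, and on 3R 11 and 8. Coverage in the stretch from 0.5 to 1 Mb was 12.6% on X, between 1.87% on 3R and 30.7% on 2L, with 49.1% on 3L and 64.0% on 2R. In the last 500 kb, X and 3R were both low, with 1.84% and 1.37% of bases covered. On X, 2L and 3L the inner end is that of the last peak, so sequence beyond it is not counted. On 2R and 3R distances run from the start of the sequence.

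Between 1 and 3 Mb from the inner end, X had 10 peaks in 4 places. There were 4 from 19815953 to 19819367 (highest score 34.0) and 4 from 21330089 to 21334775 (highest score 41.2). Single peaks lay from 19559955 to 19561013, with a score of 37.85, and from 20914838 to 20915037, with 10.05. At 5 peaks per Mb this stretch was about as sparse as the distal arm, and 3R was also sparse there, with 7.5 peaks per Mb. The other arms had 25.5 (2L), 95.5 (3L) and 131 (2R).

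**Figure D4:**
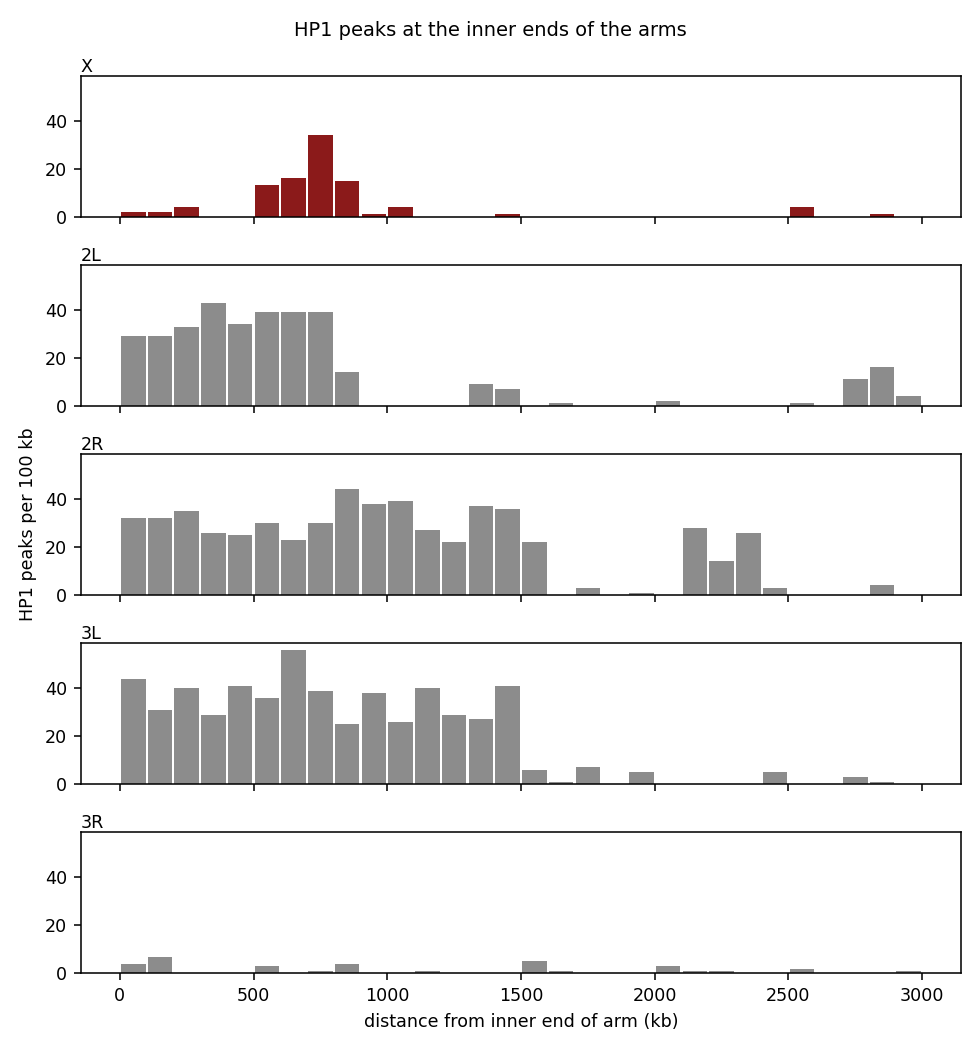
Bars give the number of HP1 peaks in steps of 100 kb from the inner end of each arm, for X and the 4 autosomal arms on a common scale. X has 78 peaks between 500 and 900 kb, up to 34 per step, with 8 peaks and 2 empty steps nearer the end, while 2L, 2R and 3L are filled from the end itself and 3R is low throughout.

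The band on X consisted of longer chains than the distal arm. The chain with the most peaks, 17, ran from 21595511 to 21614883 and was 57.3% covered, and 14 peaks from 21526660 to 21547354 were 55.4% covered. The chain from 21759509 to 21774568 held 13 peaks, the one from 21620374 to 21640447 held 10 and the one from 21790209 to 21805789 held 8. Of the 14 chains of the inner 1 Mb, 6 were longer than 10 kb, against none of the 39 on the distal X. All 6 lie in the band, where 8 of the 78 peaks (10.3%) reached a score of 34.59. Over the whole inner 1 Mb it was 10 of 87 (11.5%), close to the 11.8% of the distal arm.

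The highest score in the band belonged to a lone wide peak. It ran from 21582457 to 21586676, was 4220 bp wide, and had a score of 117.7, the highest on X outside the telomeric end. The nearest peak on its inner side was 8834 bp away and on its outer side 35102 bp. The next highest score of the inner 1 Mb, 61.1, belonged to another single peak, of 1060 bp, from 21403703 to 21404762. In the inner 1 Mb of the autosomal arms, 36.6% of peaks scored at least 34.59, and the highest score was 168.5.

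XHet carried its HP1 peaks in close groups, most of them towards 1 end, whereas the YHet peaks were few and scattered. As measured here, XHet was 0.204 Mb long and YHet 0.347 Mb. The comparison covers these sequences only, and not the heterochromatin of X and Y as a whole. The sex of the embryos is not given, and its effect on the number of peaks was not tested. XHet had 156.9 peaks per Mb with 11.7% of bases covered, and YHet 34.6 peaks per Mb with 2.42% covered. The ratio of XHet to YHet was 4.53 for density and 4.83 for bases covered, and it was 2.45 with peaks less than 1 kb apart joined. Both were sparser than the Het sequences of the autosomes, which ran from 302.7 to 385.8 peaks per Mb with 31.3% to 42.8% covered. With 12 peaks, each YHet peak weighs heavily: the widest made up 47.0% of the bases covered there.

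The XHet peaks lay towards the high end of the sequence. Only 3 lay in its first 100 kb, together from 36041 to 40603, with scores of 28.3, 17.6 and 41.6. No peak followed for 90196 bp. The other 29 formed 5 chains between 130800 and 203994, with 2 to 9 peaks each. Those from 130800 to 165812 were mostly small, with scores from 7.99 to 20.96.

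The 3 last peaks of XHet stood out by size and score. They ran from 196033 to 198909 (score 62.5), from 199533 to 202414 (score 41.3) and, with the highest score of XHet, 69.5, from 203100 to 203994. The chain from 196033 to 203994 was 83.6% covered. Before them, a peak from 176903 to 179319 scored 43.5. Together with the peak from 37810 to 40603, these were the 5 XHet peaks with scores over 40, against a median of 13.5 for the sequence.

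On YHet, 2 of the 12 peaks had high scores and the other 10 did not. The highest, 89.3, belonged to a peak of 3949 bp from 72036 to 75984. The second, 65.7, was from 137054 to 137273 and only 220 bp wide. Among the 1895 peaks of the list that are at most 250 bp wide, 8 scored that high or higher, and their median was 10.8. The next highest score among the 43 such peaks on the sex chromosomes was 16.0. This Y peak was thus an exception to the link of width and score. On YHet that link had a rank correlation of 0.339 over 12 peaks, against 0.756 over 32 on XHet. The value for YHet without this peak was not computed.

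The remaining Y peaks were small and lay in 7 places. A peak from 61804 to 62245 scored 15.5, and 2 from 114189 to 115146 scored 19.5 and 16.0. Further along, a peak from 242845 to 243074 scored 11.9, and 2 from 283324 to 284417 scored 13.9 and 26.95. Towards the end, single peaks from 317380 to 317813 and from 324663 to 325382 scored 17.3 and 13.9, and 2 from 345794 to 346560 scored 20.96 and 19.5. Of the 12 Y peaks, 6 had no neighbour within 5 kb, whereas all 32 XHet peaks had one. In the whole list 96.2% of peaks had one, so the XHet share was near that of the list and the YHet share below it.

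The Y peaks were fewer but not lower than those of XHet. The median score was 18.4 on YHet and 13.5 on XHet, and the median width was 416.5 and 348 bp. The lowest Y score, 11.9, was above the lowest of XHet, 7.35. Scores of at least 34.59 were reached by 2 of 12 Y peaks and 5 of 32 XHet peaks, which is 16.7% and 15.6%, both under the 25.4% of the list.

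**Figure D5:**
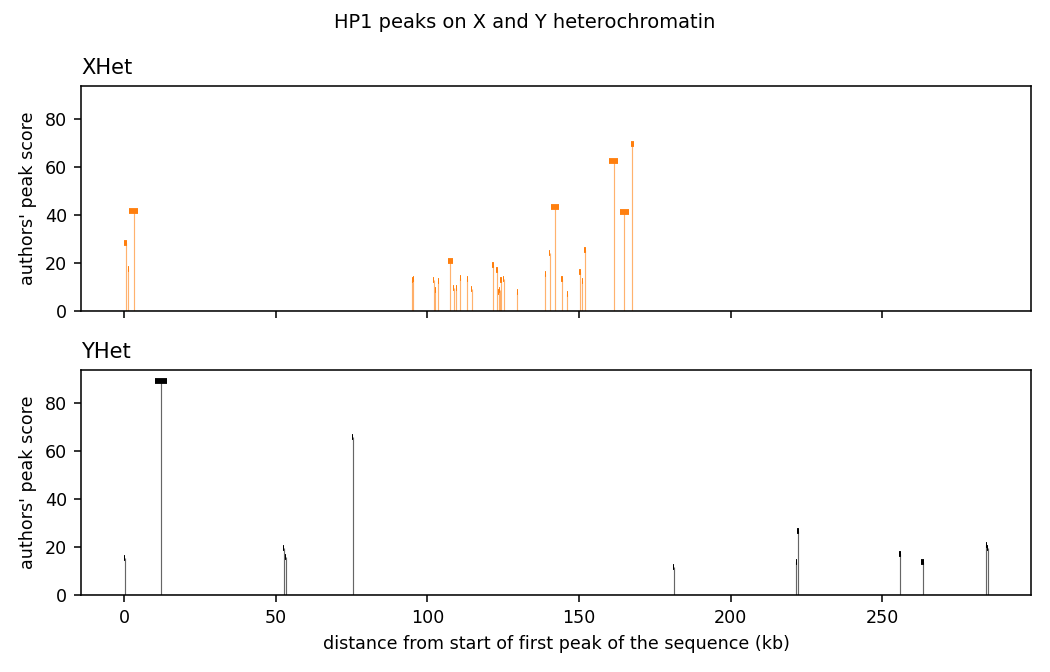
Peaks of XHet (top) and YHet (bottom) are drawn by distance in kb from the start of the first peak of each sequence, with horizontal bars for their extent at the height of the authors' score. XHet has 3 peaks, an empty stretch of about 90.2 kb and then 29 close peaks, while the 12 YHet peaks are spread over the sequence, 2 of them with scores of 65.7 and 89.3.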

How the data were processed

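Whole embryos were assayed by ChIP-seq with an HP1 antibody, in 1 input and 2 ChIP samples. Chromatin of 150 mg of material was used and the antibody was incubated for 4 h, per the labels' protocols. The authors deposited 1 list of peaks with a score per peak, on FlyBase release 5 and from a caller named MACS, per the file headers. Per the submitters' processing notes, MACS2, BWA and CASAVA (1.7.0.2 or 1.7.0.3) were used. The sources used here do not give the parameters, the threshold, whether replicates were pooled or how repeated reads were placed. Repeated reads may matter most in heterochromatin, and their effect was not tested.

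Starts were read as counting from 0, since 1 start equals 0, and are printed counting from 1. Peaks were placed by their midpoint. Chains, densities and medians were computed with Python 3.11.15, pandas 2.3.3 and numpy 2.4.6, and chains, merging and regions were tested on simulated data. Members, regions and alternatives were chosen with earlier results of these data known. The peaks named are all of the telomeric end, of the chain near 1.26 Mb and of YHet, the 10 highest scores and 5 widest of X, the 5 highest scores of XHet and its widest, and, for the distal arm and the inner 3 Mb, the 5 chains of most peaks. Peaks named beside these were chosen after their values were seen. The gene table at hand is of release 6, so genes, the 10 X-linked genes listed for a search near peaks, and DNA sequence were not analysed here.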

Additional observations from a re-analysis of the deposited data

How the results depend on the processing

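Of 70 alternative values, 45 counted as unchanged by a set rule and 25 moved. For counts, densities and ratios the rule was a fixed factor, and for shares a binomial interval. For medians it was an interval from the ranks of the peaks, which is wide where peaks are few. At the telomeric end it spans all 4 peaks, so the medians there could not move. Taken from the mean of log2 scores, the value there was 62.2 against a median of 94.5, and counted as unchanged. Counts depend on the score limit and on joining peaks. With scores of at least 20.96, X kept 80 peaks, XHet 9 and YHet 4, and the chain near 1.26 Mb 4. With scores of at least 34.59, X kept 29, XHet 5, YHet 2 and the chain 0. With peaks less than 1 kb apart joined, X had 92, XHet 13 and the chain 1. Under these settings in turn the distal X had 2.08, 0.726 and 2.44 peaks per Mb, and 77.5%, 42.9% and 34.0% of its peaks had a neighbour within 5 kb. The telomeric count stayed between 3 and 4, and the share of X peaks in the inner end was 3.64% in a window of 0.5 Mb. The density of X over that of the autosomal arms ran from 0.755 to 1.05, below 1 under each alternative. XHet over YHet ran from 2.45, with peaks joined, to 4.83. Joining raised the median score to 18.2 on the distal X and 23.25 in the inner 1 Mb. It raised the median width to 1081 bp on the distal X, 2237 bp from 1 to 3 Mb, 1292 bp in the inner 1 Mb and 1758 bp on XHet. A joined peak takes the highest score and the full extent of its members, which by construction raises both. Taking the length of XHet and YHet from the first to the last peak was added after seeing the data and gave a ratio of 4.52. Sequence lengths of a release 5 reference were not used here, so those alternatives were not run. No replicate could be left out, and no paired analysis was possible because the list carries no values per sample. Depth is unknown, so an absent peak does not show an absence of HP1.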

Other observations

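Many sex chromosome peaks carried exactly the same score. The 264 peaks had 161 distinct scores, and the whole list of 15755 had 1884. The scores 10.41, 11.52 and 13.07 each occurred 8 times among the 264 peaks and 238, 241 and 250 times in the list. The 8 peaks with 13.07 were 263 to 1163 bp wide, so peaks of unlike width shared a score. Differences between low scores therefore come in steps.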
